A study of Xenopus laevis with 32 samples.

Results

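The FGF pathway genes described here are the 59 gene identifiers that name an FGF ligand, an FGF receptor, a Sprouty or Spred inhibitor, or 1 of the genes etv1, etv4, etv5, dusp6, frs2 and il17rd, out of 29303 identifiers listed for tails of the frog Xenopus laevis. They were chosen by symbol and not by their values, though with earlier results of these data known. The frog is an allotetraploid, so most genes exist as a pair of homeologs, written .L and .S, and each homeolog counts as 1 gene. Of the 59 genes, 55 were listed for both of the study's periods and 37 had enough reads for a test, among 21231 genes tested in all. By role, the listed genes were 18 secreted ligands, 2 endocrine ligands, 6 intracellular FGF homologous factors, 9 receptors, 2 copies of the adaptor frs2, 2 ETS transcription factor genes, 18 feedback inhibitors and the pair fgfr1op2, whose identifier starts like that of a receptor but which encodes none. No identifier of etv5 was among them.

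FGF ligands are secreted proteins that bind heparan sulfate and pair FGF receptors on the cell surface. The receptors are tyrosine kinases that act through the adaptor Frs2, RAS and the kinase ERK. ERK activity switches on ETS factor genes such as etv1 and etv4 and genes of inhibitors of the same cascade, among them the Sproutys, the Spreds, the ERK phosphatase Dusp6 and the membrane protein Il17rd (Sef), so that transcripts of these genes are commonly read as a trace of FGF activity. FGF signalling is required for tail regeneration in Xenopus tadpoles, and in zebrafish an fgf20 gene is required for the fin to regenerate.

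RNA was sequenced from amputated tails at 0, 0.5, 6 and 72 h after amputation, in a regeneration and a refractory period, the latter a phase of development in which the tail does not regrow. The 8 groups each held 4 biological repeats, A to D, with RNA of 20 embryos per sample, and the embryos carried no transgene or drug that the labels name. No unamputated tails of a later time were included, so a difference from 0 h also holds whatever development brings over those hours. Since RNA extraction is described at the regenerative stage alone, refractory is the period as labelled. Libraries held 1868637 to 4022871 counts, and 3 counts, the limit that a count of 0 allows, stood for 0.713 to 1.6 CPM, the counts scaled to library size.

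The tail label was checked against markers. Summed transcripts of 14 skeletal muscle genes ran from 20560 to 77770 CPM and those of 9 notochord genes from 388 to 770 CPM. There were 5 libraries (regeneration 0 h A, 0.5 h A and 6 h B, refractory 0.5 h A and 72 h A) that the authors' normalized tables leave out. In these 5, genes of liver, pancreas and gut summed to 1983 to 2662 CPM and genes of retina and lens to 1137 to 1558 CPM, against 1011 to 2166 CPM and 592 to 1280 CPM in the other 27. Of the 5, refractory 0.5 h A lay inside the ranges of the 27 and the other 4 lay above them. Results below are given over all 32 libraries, and over the 27 where that makes a difference. In bulk tissue fewer cells of a type and less RNA per cell cannot be told apart.

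None of the 37 genes tested passed the test (edgeR quasi-likelihood, adjusted p under 0.05) in any of 10 comparisons, and DESeq2 called none of those it gave an adjusted p. In regenerating tails against 0 h this was 0 of 37 at 0.5 h, where 0.0612% of all genes tested passed, 0 of 37 at 6 h, where 0.273% passed, and 0 of 37 at 72 h, where 3.85% passed. In refractory tails it was 0 of 37 at 0.5 h, 6 h and 72 h, against 0.132%, 2.45% and 1.65% of all genes. For the difference between the periods' responses it was 0 of 37 at 0.5, 6 and 72 h, against 0%, 0.0612% and 0.466%, and for refractory against regeneration at 0 h 0 of 37 against 0.669%.

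At an unadjusted p under 0.05, the regeneration counts were 0 of 37 at 0.5 h (all genes 3%), 1 at 6 h (6.79%) and 3 at 72 h (14.3%). The refractory counts were 1 at 0.5 h (4.35%), 3 at 6 h (11.7%) and 3 at 72 h (10.4%). The differences between periods gave 2 at 0.5 h (3.33%), 2 at 6 h (5.77%) and 3 at 72 h (8.23%), and the 0 h comparison gave 2 (8.7%). Over the 27 libraries the unadjusted counts at 0.5, 6 and 72 h were 0, 4 and 3 of 37 in regenerating tails. In refractory tails they were 2, 4 and 2. The share of all genes at this unadjusted limit over the 27 is not given here. Adjusted calls over all genes at regeneration 6 h were 323 of 21458 over the 27, against 58 of 21231 over the 32. Libraries of both groups did not overlap for 0 of 37 genes at regeneration 0.5 h (all genes 2.3%), 1 at 6 h (3.49%) and 2 at 72 h (10.8%). The same count was 1 at refractory 0.5 h (3.4%), 2 at 6 h (7.97%) and 1 at 72 h (5.93%), and 1 at 0 h between the periods (4.93%). Over the 32 libraries these shares lie near those of all genes.

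How much a change could have gone unseen differed by gene. For 10 genes, fgfr1.L, fgfr2.L, fgfr2.S, fgfrl1.L, frs2.L, etv1.S, etv4.L, il17rd.L, spred1.L and spred1.S, all 6 intervals (95%) of the change from 0 h lay within 1 log2 unit, a 2-fold change either way. For another 10 genes, 1 to 5 of the 6 intervals did. For the remaining 17, which include all 8 ligands and homologous factors tested, none did, and these genes could have moved by more than 2-fold without being called.

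**Figure D1:**
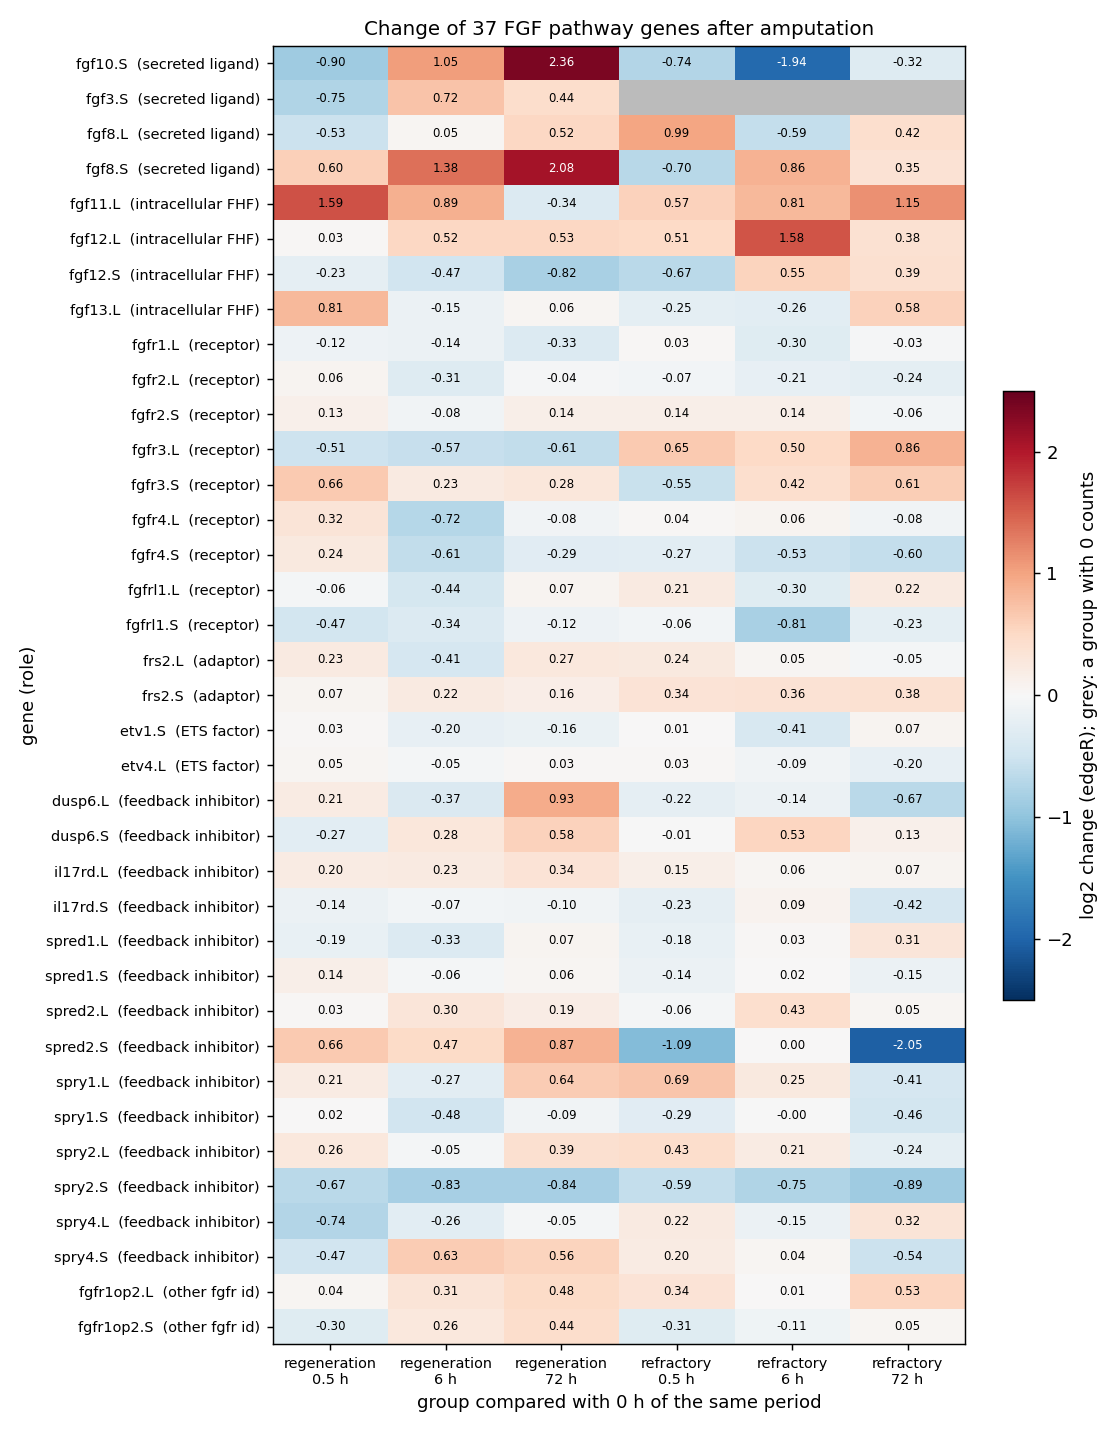
Log2 change (edgeR) of the 37 tested genes, in rows by role, at 3 times against 0 h in each period, in columns. None passed the test. The strongest colours are in low-count genes, such as the ligand genes fgf10.S (2.36) and fgf8.S (2.08) at regeneration 72 h and the inhibitor gene spred2.S (-2.05) at refractory 72 h. The cells of etv1.S, etv4.L, fgfr1.L and fgfr2.L stay pale. Grey cells mark fgf3.S, which had 0 counts at refractory 0 h.

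Secreted ligand transcripts were scarce. Of 14 such genes listed for both periods, 4 had enough reads for the test: fgf3.S, fgf8.L, fgf8.S and fgf10.S. Summed over all 14, ligand transcripts in regenerating tails were 0.248, 12.7, 13.5 and 11.9 CPM at 0 h and 23.4, 26.8, 25.2 and 20.2 CPM at 72 h in libraries A to D. All 4 libraries at 72 h lay above all 4 at 0 h, and library 0 h A held 1 ligand count in all. At 0.5 h the sum was 11.2 ± 3.20 CPM (SD, n = 4) and at 6 h 15.97 ± 2.81 CPM. Without the 5 libraries named above, 3 libraries remained at 0 h, at 11.9 to 13.5 CPM.

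In refractory tails the summed level was 5.94, 8.68, 9.31 and 9.79 CPM at 0 h and 5.37, 10.7, 17.7 and 17.3 CPM at 72 h. These groups overlapped through 72 h A alone, and over the 27 libraries they did not overlap (5.94 to 9.79 CPM at 0 h, 10.7 to 17.7 CPM at 72 h). At 0.5 and 6 h it was 11.5 ± 2.03 and 11.4 ± 3.49 CPM (SD, n = 4). The sum is a description without a test. Muscle marker transcripts were lower at 72 h than at 0 h in both periods, 20560 to 32200 against 47080 to 64710 CPM in regenerating and 32820 to 46030 against 55010 to 77770 CPM in refractory tails. Notochord marker transcripts at regeneration 72 h were 615 to 770 CPM against 424 to 455 CPM at 0 h. The part of tissue composition in the ligand levels was not tested.

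**Figure D2:**
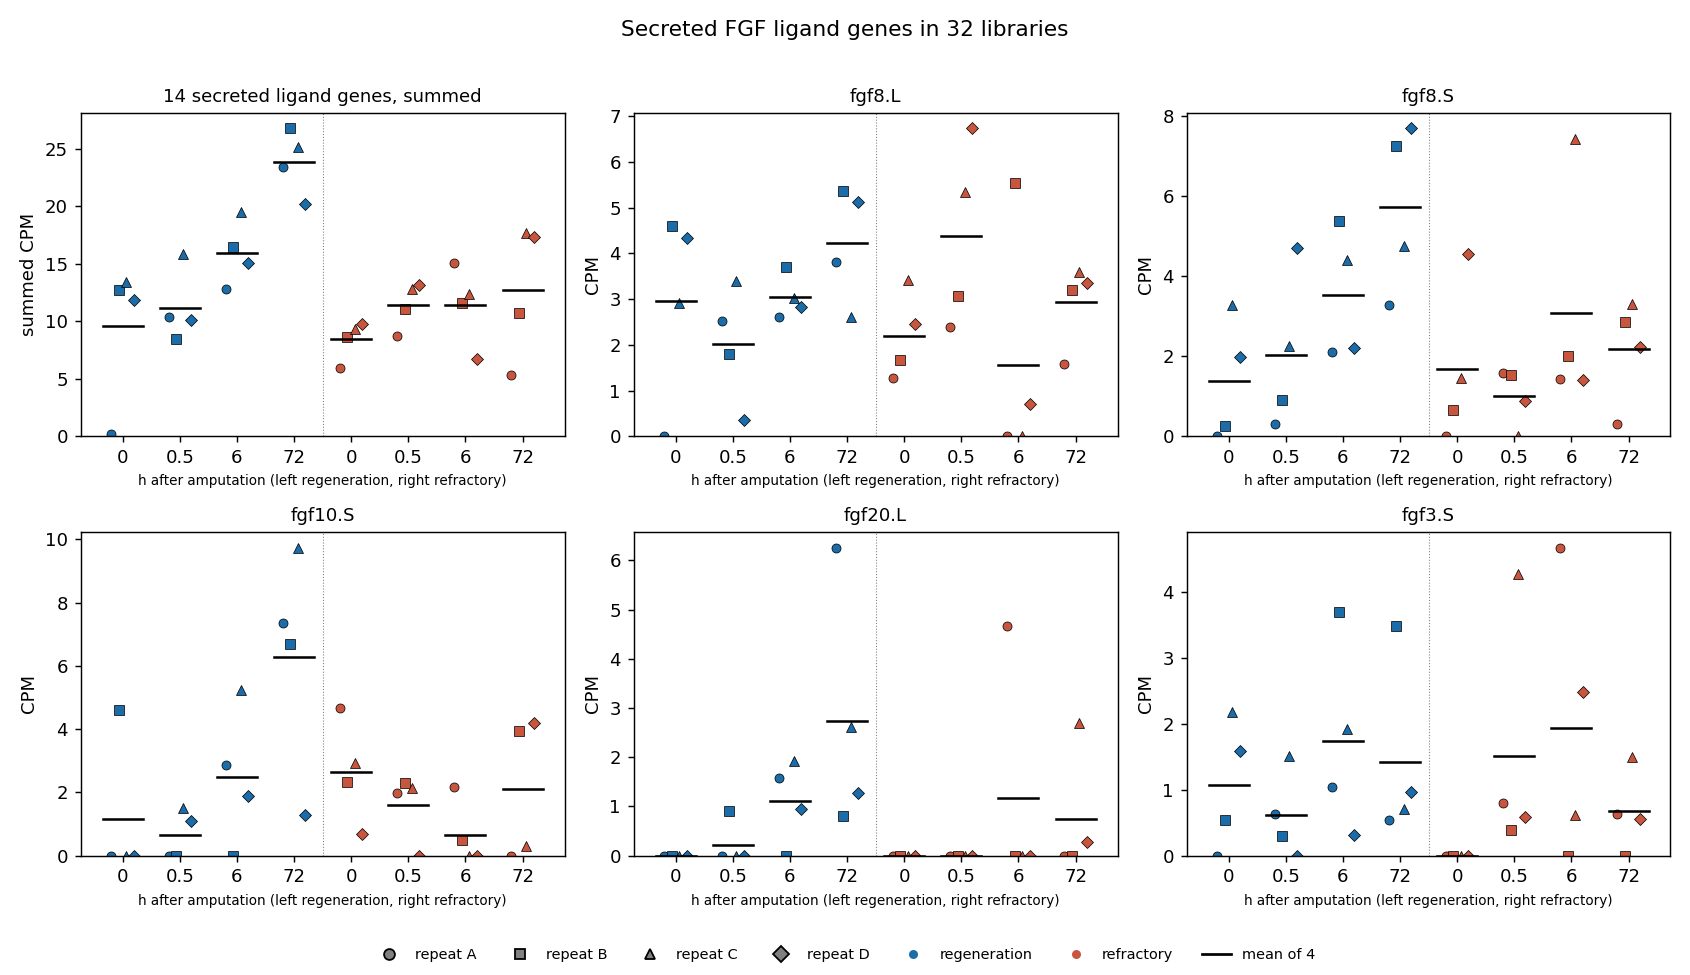
CPM of secreted ligand genes in each of 32 libraries, by period (colour), time (x axis) and repeat (marker), with the mean of 4 as a bar. The summed level of 14 ligand genes at regeneration 72 h, 20.2 to 26.8 CPM, lies above every 0 h library, and fgf20.L is at 0 in all 8 libraries of 0 h.

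Transcripts of fgf20.L, a ligand gene of the fgf9 subfamily, were at 0 counts in all 4 regeneration libraries at 0 h. At regeneration 0.5 h they had 0, 3, 0 and 0 counts in libraries A to D, at 6 h 6, 0, 7 and 3 counts, and at 72 h 23, 3, 11 and 4 counts. Every library at 72 h thus held the transcript and no library at 0 h did. Scaled to library size, the counts found stood 5.09-fold above the limit of 3 counts over the 0 h group at 6 h. At 72 h they stood 12.1-fold above it, or 7.05-fold without library 72 h A. These ratios leave out the counting error of the later groups. In refractory tails it had 0 counts at 0 and 0.5 h in all 8 libraries, 13 counts in 1 library (A) at 6 h, and 9 and 1 counts in libraries C and D at 72 h. These counts stood 4.1-fold at 6 h and 2.65-fold at 72 h above the limit of 3 counts over refractory 0 h. Their own counting error is left out here too. Without library 6 h A no count was left at 6 h, and without 72 h C 1 count was left at 72 h. The gene had too few reads for the test. When the filter on low counts was dropped it was not called at regeneration 72 h (adjusted p = 0.102). Its homeolog fgf20.S had 27 counts over all 32 libraries.

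The gene fgf8.S encodes a ligand known from the limb bud, the tail bud and the boundary between midbrain and hindbrain of vertebrates. Its level in libraries A to D was 0, 0.271, 3.27 and 1.98 CPM at regeneration 0 h and 3.27, 7.24, 4.75 and 7.69 CPM at 72 h. The groups touched at 3.27 CPM, where 0 h C and 72 h A met. The log2 change was 2.08 ± 1.04 (SE, 95% interval 0.01 to 4.16, adjusted p = 0.347). In refractory tails the means were 1.67 ± 2.01 CPM at 0 h and 2.18 ± 1.315 CPM at 72 h (SD, n = 4), a log2 change of 0.35. Its homeolog fgf8.L was at 2.96 ± 2.11 and 4.23 ± 1.27 CPM in regenerating tails at these times. Reads of both homeologs together gave 1.22 ± 0.64 (SE, adjusted p = 0.358).

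The gene fgf10.S encodes a ligand that mesenchyme sends to epithelium in limb and lung. It had 0, 17, 0 and 0 counts at regeneration 0 h and 27, 25, 41 and 4 counts at 72 h in libraries A to D. Library B at 0 h, with 17 counts, lay above library D at 72 h, with 4. The log2 change was 2.36 ± 1.23 (SE, adjusted p = 0.38). Without regeneration 0 h B the gene was called (adjusted p = 0.0226), with no reads left in the 0 h group. In refractory tails its level was 2.66 ± 1.64 CPM at 0 h and 2.10 ± 2.26 CPM at 72 h (SD, n = 4).

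The ligand gene fgf3.S had 0 counts in all 4 refractory libraries at 0 h, and 12 counts at regeneration 0 h. Later refractory groups held 13 counts in 4 libraries at 0.5 h, 22 in 3 at 6 h and 9 in 3 at 72 h. Scaled to library size, these counts stood 4.27-fold, 6.94-fold and 2.39-fold above the limit of 3 counts at 0 h, with their own counting error left out. Single libraries carried much of this: without 0.5 h C, 6 h A and 72 h C, with 8, 13 and 5 counts, the ratios were 2-fold, 3.82-fold and 1.43-fold. None of these was called, and the smallest adjusted p of the 3 was 0.132. At refractory 0.5 h it was the 1 gene whose libraries did not overlap those of 0 h.

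The other 10 ligand genes listed for both periods and not tested had few reads. Over 32 libraries, fgf10.L had 104 counts in 20 libraries, fgf2.S 76 in 17, fgf7.L 42 in 12 and fgf22.L 27 in 7. The genes fgf6.L, fgf3.L, fgf16.S and fgf7.S had 25, 24, 20 and 7 counts. The endocrine ligand genes fgf23.1.L and fgf23.2.L, of a ligand that controls phosphate in mammals, had 135 and 75 counts and were not tested either. Of fgf23.2.L, 0 counts fell in regeneration 0 h and 0, 6, 1 and 11 in refractory 0 h A to D. The refractory counts stood 7.61-fold above the limit of 3 counts over the regeneration group, or 4.1-fold without library D, with their own counting error left out.

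The intracellular FGF homologous factors are related to the ligands by sequence but are not secreted, and in neurons they bind sodium channels. The 4 tested, fgf11.L, fgf12.L, fgf12.S and fgf13.L, averaged 1.46 to 3.77 CPM over all libraries. Their changes from 0 h ran from -0.82 (fgf12.S at regeneration 72 h) to 1.59 (fgf11.L at regeneration 0.5 h), with standard errors of 0.83 to 1.52. The homeologs fgf11.S and fgf13.S, with 54 and 98 counts, were not tested.

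All 9 receptor genes were tested. The genes fgfr1.L, fgfr2.L and fgfr2.S held narrow ranges. For fgfr1.L, the level in libraries A to D was 115, 106, 124 and 87.8 CPM at regeneration 0 h and 78.2, 85.8, 90.5 and 89.1 CPM at 72 h. These groups overlapped, with 0 h D inside the range of 72 h. The log2 change was -0.33 ± 0.15 (SE, adjusted p = 0.274), and over all 6 comparisons with 0 h the intervals of fgfr1.L lay between -0.64 and 0.34. For fgfr2.L, the change at regeneration 6 h was -0.31 ± 0.15 (adjusted p = 0.673), from 108 to 87.0 CPM. Its 4 refractory libraries at 72 h, 92.2 to 104.9 CPM, lay below the 4 at 0 h, 106 to 127 CPM, the 1 such gene in that comparison.

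The receptor gene fgfr3.L took opposite courses in the measured means of the periods. In regenerating tails it was 24.6, 21.4, 19.6 and 23.7 CPM at 0 h and 19.6, 12.9, 14.2 and 11.5 CPM at 72 h. In refractory tails it was 12.7, 6.01, 14.2 and 11.9 CPM at 0 h and 19.3, 13.9, 18.9 and 28.5 CPM at 72 h. The periods did not overlap at 0 h, where the log2 difference, refractory minus regeneration, was -1.01 ± 0.34 (SE, adjusted p = 0.223). The change to 72 h was -0.61 ± 0.33 in regenerating tails (adjusted p = 0.399) and 0.86 ± 0.34 in refractory tails (adjusted p = 0.271). The difference of these responses was 1.47 ± 0.47 (SE, 95% interval 0.53 to 2.42, adjusted p = 0.197), and it shares its 0 h libraries with the 0 h comparison. In regenerating tails the libraries at 6 h (9.41 to 19.1 CPM) and at 72 h (up to 19.61 CPM) lay below the lowest at 0 h (19.63 CPM). Its homeolog fgfr3.S was at 2.182 to 12.91 CPM at regeneration 0 h and 5.091 to 10.49 CPM at refractory 0 h, with overlap. At 72 h it was at 7.368 to 10.21 and 7.137 to 15.79 CPM, with a mean above that of 0 h in both periods. Reads of both homeologs together gave -0.69 ± 0.29 (SE, adjusted p = 0.408) at 0 h. Their changes to 72 h were -0.34 in regenerating and 0.77 in refractory tails. The difference of these was 1.12 ± 0.41 (SE, adjusted p = 0.291). Erythrocyte marker transcripts at 0 h were 1208 to 2840 CPM in regenerating and 4881 to 26950 CPM in refractory tails, and epidermis markers 556 to 1056 and 437 to 482 CPM, and their part in the 0 h difference was not tested.

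The gene fgfrl1.S encodes a receptor-like protein that binds FGF and lacks the tyrosine kinase domain. In refractory tails its level was 25.0, 33.7, 37.2 and 29.0 CPM at 0 h and 11.5, 22.1, 18.2 and 19.8 CPM at 6 h in libraries A to D. Every library at 6 h lay below every library at 0 h. The log2 change was -0.81 ± 0.27 (SE, 95% interval -1.35 to -0.27, adjusted p = 0.11), and over the 27 libraries the adjusted p was 0.058. The 27 hold every library of these groups, so only the fit shared by all groups and the genes tested differed. In regenerating tails the means were 32.2 ± 3.32 CPM at 0 h and 25.5 ± 8.20 CPM at 6 h (SD, n = 4). Library 6 h B, 1 of the 5 libraries named above, held 37.3 CPM. Over the 27 libraries the level was 18.8 to 24.4 CPM at regeneration 6 h and 28.1 to 36.0 CPM at 0 h, without overlap. Its homeolog fgfrl1.L had a log2 change of -0.30 at refractory 6 h, which did not pass the test.

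The remaining receptors fgfr3.S, fgfr4.L and fgfr4.S had wide intervals, which reached 1.67, 1.63 and 2.13 log2 units from 0. The frs2 pair, whose protein links the receptor to the RAS and PI3K branches, stayed within 1.01 log2 units of 0 h in every interval. Their fitted changes ran from -0.41 (frs2.L at regeneration 6 h) to 0.38 (frs2.S at refractory 72 h).

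The ETS factor genes were among the most precisely measured. For etv4.L, the 6 intervals against 0 h reached 0.52 log2 units at most, and its group means lay between 97.5 and 116 CPM. Its largest single value, 161 CPM, was in regeneration 6 h B, 1 of the 5 libraries named above. For etv1.S in refractory tails, the level was 173, 184, 151 and 144 CPM at 0 h and 124, 117, 132 and 119 CPM at 6 h. Every library at 6 h lay below every library at 0 h. The log2 change was -0.41 ± 0.14 (SE, 95% interval -0.68 to -0.13, adjusted p = 0.117). Over the 27 libraries the same change, -0.41, was called (adjusted p = 0.0322), as were 886 of all 21458 genes tested there. The 5 libraries left out belong to neither refractory 0 h nor refractory 6 h, so the libraries compared were the same. What differed was the fit shared by all groups and the genes tested. At regeneration 6 h the mean was 140 ± 36.4 CPM (SD, n = 4) against 160 ± 24.0 CPM at 0 h, and the library 6 h B held 193 CPM.

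**Figure D3:**
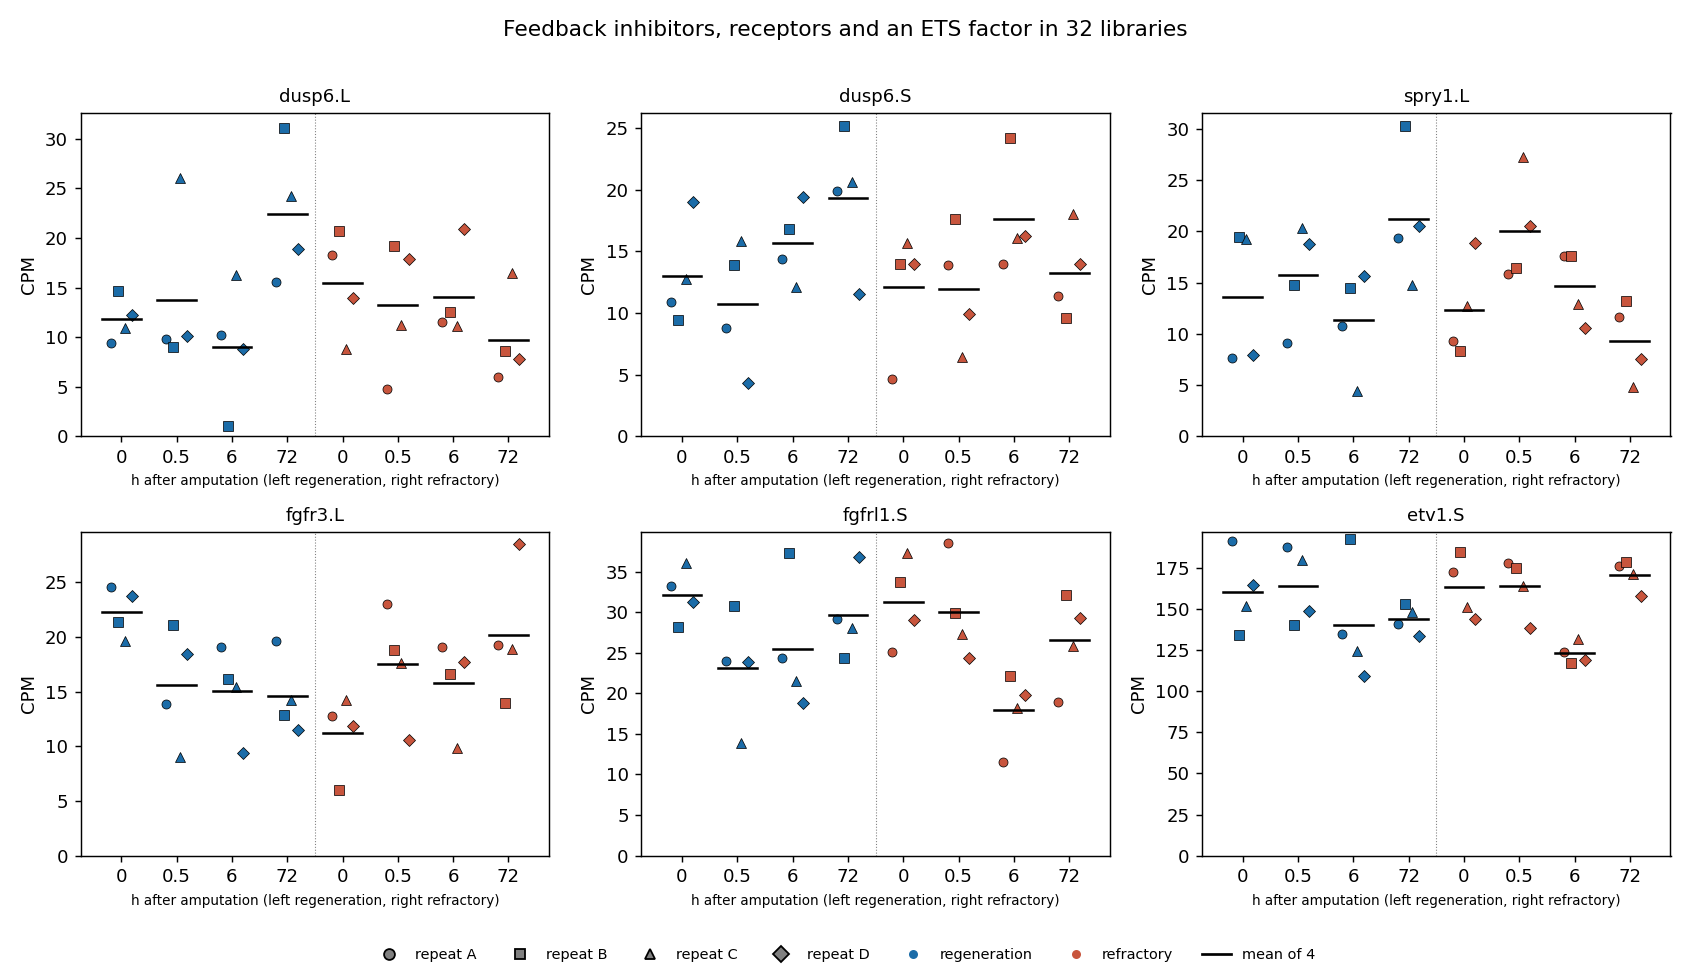
CPM of dusp6.L, dusp6.S, spry1.L, fgfr3.L, fgfrl1.S and etv1.S in each of 32 libraries, by period (colour), time (x axis) and repeat (marker), with the mean of 4 as a bar. At refractory 6 h all libraries of etv1.S (117 to 132 CPM) and fgfrl1.S (11.5 to 22.1 CPM) lie below all at 0 h, and at regeneration 72 h all libraries of dusp6.L (15.5 to 31.1 CPM) lie above all at 0 h.

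Of 18 feedback inhibitor genes, 14 were tested, and both homeologs of spry3 and spred3, with 29 to 121 counts in all, were not. The gene dusp6.L encodes a phosphatase that removes the activating phosphates from ERK. In regenerating tails its level was 9.43, 14.6, 10.9 and 12.3 CPM at 0 h and 15.5, 31.1, 24.2 and 18.9 CPM at 72 h. Every library at 72 h lay above every library at 0 h, the 1 gene higher without overlap in that comparison. The log2 change was 0.93 ± 0.42 (SE, 95% interval 0.08 to 1.78, adjusted p = 0.28). In refractory tails the level was 18.2, 20.7, 8.82 and 13.99 CPM at 0 h and 6.00, 8.56, 16.5 and 7.81 CPM at 72 h, with overlap, and the log2 change was -0.67. The difference of the responses was -1.60 ± 0.61 (SE, 95% interval -2.82 to -0.38, adjusted p = 0.358).

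Its homeolog dusp6.S was at 13.02 ± 4.18 and 19.3 ± 5.69 CPM (SD, n = 4) at regeneration 0 and 72 h, a log2 change of 0.58. With reads of both dusp6 homeologs added up, the log2 change at regeneration 72 h was 0.76 ± 0.28 (SE, 95% interval 0.21 to 1.31, adjusted p = 0.112). In refractory tails the added reads gave -0.26 ± 0.28. The share of dusp6 reads that fell on .S varied between libraries, from 20.4% in 1 refractory 0 h library to 94.3% in regeneration 6 h B. That library, with 3 counts of dusp6.L and 50 of dusp6.S, is 1 of the 5 libraries named above. So is refractory 0.5 h A, where the share was 74.5%. How reads shared by homeologs were assigned is not stated, so the values of single copies are uncertain.

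The Sprouty gene spry1.L, whose protein acts between the receptor and RAS, was at 7.70, 19.5, 19.3 and 7.91 CPM at regeneration 0 h and 19.3, 30.3, 14.7 and 20.5 CPM at 72 h. In refractory tails the mean was 12.3 ± 4.76 CPM at 0 h, with 9.30 ± 3.84 CPM at 72 h (SD, n = 4). Groups overlapped in both periods, and the difference of the responses was -1.05 ± 0.54 (SE, adjusted p = 0.623). Its homeolog spry1.S gave -0.09 and -0.46 at 72 h in regenerating and refractory tails.

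The Spred gene spred2.S, of an inhibitor of the step from RAS to RAF, held few reads. In refractory tails it was at 1.697, 8.01, 4.41 and 1.75 CPM at 0 h and 0, 1.78, 0 and 1.95 CPM at 72 h. The groups overlapped, and the log2 change was -2.05 ± 0.97 (SE, adjusted p = 0.429). The difference of the responses at 72 h was -2.92 ± 1.31 (SE, adjusted p = 0.523). Intervals of its homeolog spred2.L and of il17rd.S reached 1.198 and 1.01 log2 units from 0 h in the 6 comparisons, and those of spred1.L, spred1.S and il17rd.L 0.73, 0.68 and 0.81.

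Over the 14 inhibitors tested, the median log2 change at 72 h was 0.27 in regenerating tails, with 10 above 0, and -0.33 in refractory tails, with 9 below 0. Over all 21231 genes tested the medians were 0.02 and 0.02, with 10997 above 0 in regenerating and 10181 below 0 in refractory tails. For the difference of the responses at 72 h, 12 of 14 were below 0, with a median of -0.35. Over all genes 10310 of 21231 were below 0, with a median of 0.02. The interval of this difference lay within 1 log2 unit for 3 of the 14. At 6 h the medians of the inhibitors were -0.06 in regenerating and 0.04 in refractory tails. For the difference of the responses at 6 h, 11 of 14 were above 0, with a median of 0.14. Over all genes 10436 of 21231 were above 0, with a median of -0.01. These are descriptions, and the 3 comparisons at 72 h share libraries. The gene spry2.S was fitted below 0 h at all 6 times and periods, from -0.59 to -0.89, with standard errors of 0.49 to 0.51 and a smallest adjusted p of 0.462.

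**Figure D4:**
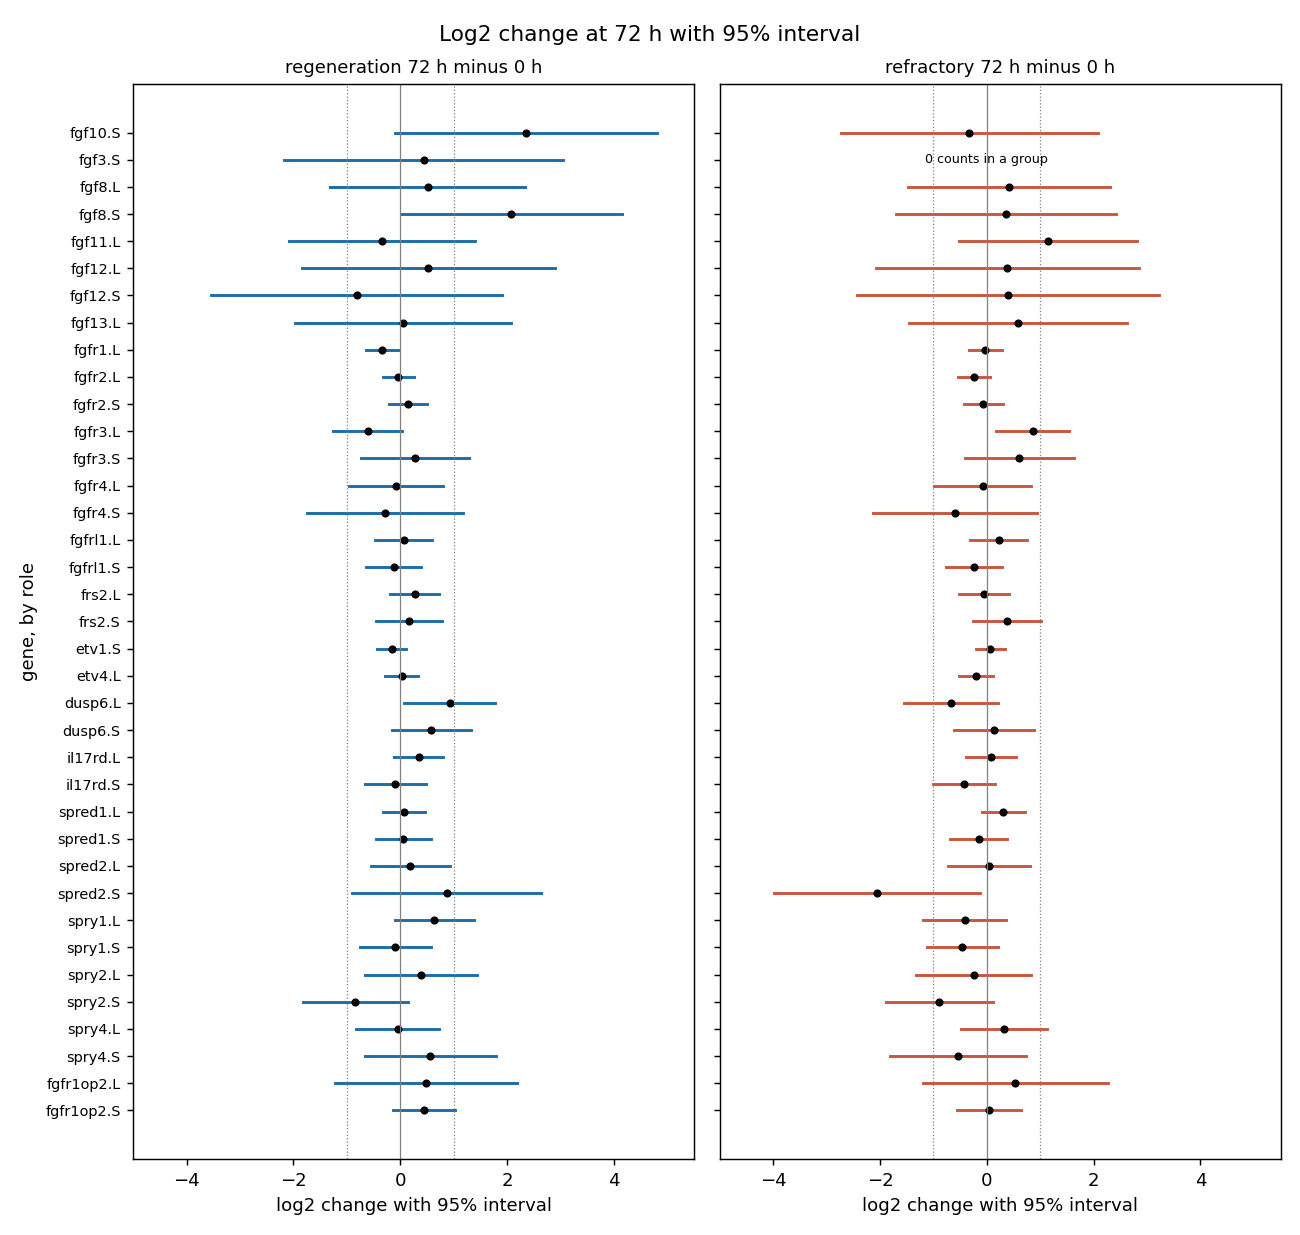
Log2 change at 72 h against 0 h with its 95% interval for the 37 genes tested, regenerating tails left and refractory tails right, with dotted lines at 1 log2 unit either way. Intervals of ligand genes span several units, as for fgf10.S, while those of fgfr1.L, fgfr2.L, etv1.S and etv4.L lie within 1 unit. The pair of panels differs in side of 0 for several genes, among them dusp6.L (0.93 and -0.67) and fgfr3.L (-0.61 and 0.86).

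The homeologs of a gene often differed in the sign of their measured change. Of 15 pairs with both copies tested, 7, 9 and 7 had the same sign at regeneration 0.5, 6 and 72 h and 5, 7 and 8 at the refractory times. With the reads of each pair added up, no FGF pathway gene was called in any of the 10 comparisons.

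Genes around the pathway were read from 3 lists. The lists were chosen with earlier results of these data known, so their counts beside the share of all genes are descriptions. Co-receptors, binding proteins and heparan sulfate enzymes had 46 genes tested, RAS, MAPK, PI3K and PLC signal transduction 48, and other ERK phosphatases and genes known as FGF or ERK targets 33. In the last list 5, 4 and 3 of 33 genes rose at regeneration 0.5, 6 and 72 h, where 0.0612%, 0.273% and 3.85% of all genes passed. At refractory 0.5 and 6 h 9 and 13 rose, against 0.132% and 2.45% of all genes, and none of the list fell at any of these times. At refractory 72 h none of the 33 passed edgeR's test, and 8 had an unadjusted p under 0.05 (10.4% of all genes did). DESeq2 called 3 of the 33 there, and 462 of all 21231 genes. For the difference between the periods' responses, 0 of 33 passed edgeR's test at 0.5, 6 and 72 h (all genes 0%, 0.0612% and 0.466%). At an unadjusted p under 0.05 there were 2, 4 and 3 (all genes 3.33%, 5.77% and 8.23%). Many of these targets also respond to other signals through ERK and to wounding. The phosphatase gene dusp5.L, of an ERK phosphatase of the nucleus, rose at refractory 6 h from 13.3 ± 5.36 to 381 ± 136 CPM (SD, n = 4; log2 change 4.86 ± 0.54 SE, adjusted p = 2.06e-06). At regeneration 6 h it rose from 8.97 ± 3.43 to 67.2 ± 46.1 CPM (log2 change 2.92 ± 0.53 SE, adjusted p = 0.0127). This call was lost without regeneration 0 h B (adjusted p = 0.0631), 0 h C (0.0738) or 6 h C (0.086). In libraries A to D dusp5.L was at 71.74, 10.75, 123.2 and 63.02 CPM, against 5.817 to 13.04 CPM at 0 h. Library 6 h B, 1 of the 5 libraries named above, lay in the 0 h range. The target fos.L was at 7.252 CPM in regeneration 0.5 h A, another of the 5, against 115 to 159.2 CPM in B to D. Its range at regeneration 0 h was 2.435 to 10.54 CPM. In refractory 0.5 h A, also of the 5, fos.L was at 198.5 CPM, above its refractory 0 h range of 2.003 to 11.26 CPM. At refractory 0.5 h the phosphatase gene dusp1.S rose from 10.5 ± 3.97 to 53.1 ± 2.07 CPM (adjusted p = 2.82e-06), and at regeneration 72 h myc.S, of a growth-promoting transcription factor, rose from 39.1 ± 8.94 to 77.7 ± 7.94 CPM (adjusted p = 0.000264).

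In the signal transduction list, 4 of 48 genes rose at refractory 6 h, where 2.45% of all genes passed. None passed edgeR's test in the other 9 comparisons, where 1 to 7 had an unadjusted p under 0.05 (3% to 14.3% of all genes did). DESeq2 called at most 1 of the list in each of the 9, and 0 to 999 of all 21231 genes. Among the 4 that rose at refractory 6 h were both homeologs of the RAF kinase gene braf, braf.L from 82.0 ± 14.9 to 164 ± 30.4 CPM (log2 change 0.998 ± 0.16 SE, adjusted p = 2.09e-05) and braf.S from 59.0 ± 14.2 to 124 ± 10.96 CPM (adjusted p = 2.16e-05). The adaptor gene crkl.L rose from 75.5 ± 12.8 to 142 ± 19.2 CPM (adjusted p = 3.28e-05).

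In the co-receptor list, 3 of 46 genes rose at refractory 6 h, where 2.45% of all genes passed: fgfbp1.S, sdc1.L and sdc4.L. The gene fgfbp1.S encodes a secreted protein that releases FGF from heparan sulfate in the matrix. In libraries A to D it was at 8.49, 8.01, 12.2 and 9.79 CPM at refractory 0 h and 51.1, 43.3, 67.3 and 58.4 CPM at 6 h. The groups lay far apart, with a log2 change of 2.52 ± 0.33 (SE, adjusted p = 1.29e-07). In regenerating tails it was at 12.7, 22.7, 18.5 and 19.4 CPM at 0 h and 16.2, 5.71, 12.4 and 11.9 CPM at 6 h, with overlap and a log2 change of -0.65 that did not pass (adjusted p = 0.726). The difference of the responses at 6 h was 3.17 ± 0.46 (SE, adjusted p = 1.34e-05) and passed under all 23 alternatives run, with adjusted p up to 0.000154.

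The gene sdc1.L encodes syndecan-1, an epithelial heparan sulfate proteoglycan that presents FGF to its receptors. At refractory 6 h it was at 606, 788, 653 and 724 CPM, against 83.2, 106, 67.1 and 118 CPM at 0 h (log2 change 2.88 ± 0.25 SE, adjusted p = 2.33e-08). At regeneration 6 h it was at 250, 96.1, 276 and 235 CPM against 92.1, 86.3, 123 and 82.2 CPM at 0 h, and library 6 h B alone stayed in the range of 0 h. That change (1.16 ± 0.24 SE, adjusted p = 0.0296) was lost without any 1 of regeneration 0 h A, B or D or 6 h A, C or D (adjusted p from 0.0653 to 0.179). The difference of the responses at 6 h, 1.72 ± 0.33 (SE, adjusted p = 0.0404), was lost in 16 of 23 alternatives, 12 of which leave out 1 library (0 h A, B, C or D, or 6 h A or D, of regeneration; 0 h A, B or C, or 6 h A, B or D, of refractory). The syndecan gene sdc4.L rose at refractory 6 h from 11.2 ± 6.56 to 47.0 ± 17.4 CPM (adjusted p = 0.00293). At refractory 6 h epidermis markers summed to 781 to 972 CPM against 437 to 482 CPM at 0 h, and their part in these changes was not tested. At regeneration 6 h the same markers summed to 1729, 463, 1263 and 1592 CPM in libraries A to D, against 556 to 1056 CPM at 0 h. Library 6 h B, where sdc1.L was at 96.1 CPM, was the 1 of the 4 below the 0 h range, and the other 3 lay above it.

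**Figure D5:**
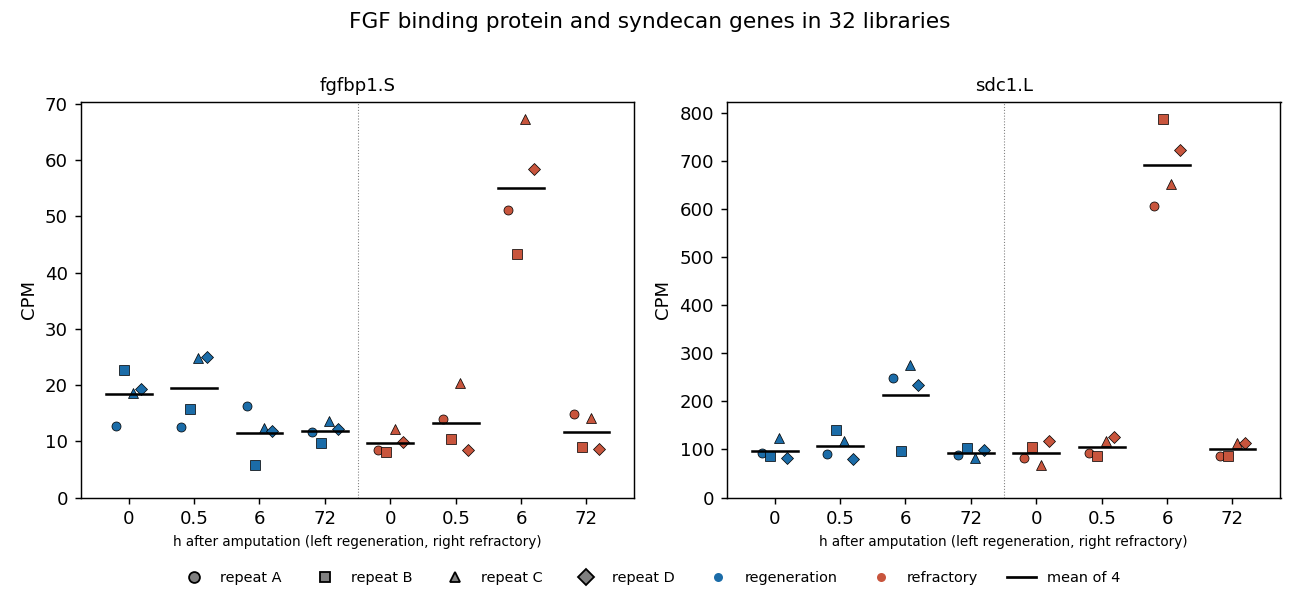
CPM of fgfbp1.S and sdc1.L in each of 32 libraries, by period (colour), time (x axis) and repeat (marker), with the mean of 4 as a bar. At refractory 6 h fgfbp1.S (43.3 to 67.3 CPM) and sdc1.L (606 to 788 CPM) stand above all other groups.

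At regeneration 72 h 2 of the 46 genes of this list fell, a share near the 3.85% of all genes that passed in either direction there. The proteoglycan gene sdc3.L, known from nerve tissue, fell from 41.2 ± 4.36 to 20.5 ± 3.99 CPM (SD, n = 4; log2 change -1.002 ± 0.24 SE, adjusted p = 0.00483). The neural adhesion gene ncam1.S fell from 136 ± 26.2 to 90.6 ± 8.41 CPM (adjusted p = 0.0191), a call lost without regeneration 0 h A or C or 72 h B, C or D (adjusted p from 0.0508 to 0.135). Transcripts of 11 spinal cord and neuron markers summed to 386 to 439 CPM at regeneration 72 h and 455 to 699 CPM at 0 h, and their part in these falls was not tested.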

How the data were processed

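Per the labels, total RNA of amputated tails was sequenced. The submitters' processing notes name STAR (2.7.9a), HTSeq (0.6.1p1), DESeq2 (1.32.0) and, for R, version 4.1.0, without settings. No genome build, annotation or transcript length is given in the sources used here, and levels are compared between samples and not between genes. The deposited raw tables, 1 per period, hold counts of reads per gene. The authors' normalized tables hold a signal, counts divided by 1 size factor per library, for 27 of 32 libraries, and served to name the 5 absent ones. All 59 columns matched sample titles.

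Counts of the 27467 genes listed in both raw tables were tested in R 4.3.3 with edgeR 4.0.16: TMM scaling, filterByExpr by group, and 1 robust quasi-likelihood fit of 8 groups over 32 libraries (24 residual degrees of freedom, common biological coefficient of variation 0.38). P-values were adjusted by Benjamini-Hochberg over 21231 genes in each of 10 contrasts, two-sided, and an adjusted p under 0.05 was a call. CPM are scaled to TMM-adjusted library sizes, and n = 4 libraries per group. The code was tested on simulated data. Nothing in the labels says that repeats came from separate clutches, so p-values measure the spread between these samples. The limit of 3 counts covers counting error in the group at 0 only, and reads are not unique molecules. Fold ratios to that limit use the counts found in the other group and leave out its counting error.

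Alternatives were DESeq2 1.42.0, RLE size factors, no filter on low counts, the 27 libraries, the compared groups alone, 2 replicate blocks, each library left out and homeologs summed. Members and lists were chosen with earlier results of these data known. The rule for named genes asked for values in every library for genes called, and for at most 3 called genes per list and contrast. As no FGF gene was called, the 16 whose single values were examined were chosen after their values were seen, by role and smallest p. No sequences are shown, as none were at hand.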

Additional observations from a re-analysis of the deposited data

Results flagged for a closer look

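The 16 FGF pathway genes examined library by library were screened for single libraries far from the other 3 of their group on the log2(CPM + 1) scale. Of 124 groups screened, 11 held such a library. The screen's chance rate of about 5% holds for normally distributed values and cannot be set against this count. A group with 3 libraries at 0 and 1 above 0 is always flagged, and the 16 genes were chosen after their values were seen. Among ligands, fgf8.L stood at 1.58 CPM in refractory 72 h A, below the others. The gene fgf10.S stood at 4.599 CPM in regeneration 0 h B, where the others were at 0, and at 0 in refractory 0.5 h D, below the others. The gene fgf10.L stood at 5.02 CPM in regeneration 6 h D, 3.67 CPM in refractory 0 h B and 1.5 CPM in refractory 72 h C, each time with the others at 0. The gene fgf20.L stood at 0.905 CPM in regeneration 0.5 h B and 4.68 CPM in refractory 6 h A, the others again at 0. Each of these ligand values rests on 17 counts or fewer. The ETS factor gene etv4.L stood at 161 CPM in regeneration 6 h B, above the others. The phosphatase gene dusp6.L stood at 26.0 CPM in regeneration 0.5 h C, above the others, and dusp6.S at 4.67 CPM in refractory 0 h A, below them. Of these 11, the libraries regeneration 6 h B and refractory 72 h A are among the 5 that the authors' normalized tables leave out.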

How the results depend on the processing

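The count of FGF genes called was 0 in each of the 10 comparisons and stayed 0 under RLE size factors, DESeq2, no filter on low counts, the compared groups alone and summed homeologs. It became 1 of 37 at refractory 6 h with the 27 libraries (etv1.S), where 886 of all 21458 genes tested were called. With 1 library left out it ran from 0 to 1 at regeneration 72 h (1, fgf10.S, without regeneration 0 h B). The labels name no block for samples of the same letter. Their deviations from the group means had a mean correlation of 0.00766 within a period (-0.153 to 0.197), over 0.1 in 1 of 48 pairs. Whether such samples shared a clutch or batch was not tested. The count was 0 with either replicate block wherever that block could be fitted, and the block within each period could not be fitted for the 0 h comparison. The block moved sdc1.L at 6 h past the threshold: adjusted p = 0.062 in regenerating tails with the block within each period, and 0.0584 and 0.0579 for the difference between periods. Of the log2 changes of named genes followed under the alternatives, which do not include fgf10.S, 681 kept direction and side of the threshold, 69 kept direction and lost the call, 1 gained it (etv1.S above) and none reversed. The 681 include FGF genes not called to begin with, so they do not measure how stable the calls were. Among calls in regenerating tails, fosl1.S at 6 h was lost in 9 of 14 alternatives, sdc1.L at 6 h in 8 of 15 and ier2.S at 0.5 h in 7 of 15. Those of myc.S and sdc3.L at regeneration 72 h were lost in 0 of 15, as were those of dusp5.L and sdc1.L at refractory 6 h. The number of ERK targets called at regeneration 0.5, 6 and 72 h, 5, 4 and 3, became 9, 9 and 5 with the 27 libraries. Calls over all genes rose there too, from 13, 58 and 818 of 21231 to 28, 323 and 1111 of 21458. With 1 library left out, the number of ERK targets called at 0.5 h ran from 1 (without 0 h B) to 8 (without 0.5 h A). At 6 h it was 0 without 0 h B or 6 h C. Calls over all genes with 1 library left out are not given here. At refractory 72 h the number of ERK targets called was 0, and 5 with the 27 libraries. Calls over all genes at that time went from 350 to 747. Leaving out each library for the fold ratios to the limit of 3 counts was chosen after seeing the data. Depth limits the ligands most: at 3.34 to 8.81 counts per library on average for those tested, changes of several-fold lie inside their intervals.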

Other observations

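Ligand genes listed for a single period were in no comparison. In regenerating tails fgf1.S had 9 counts in 2 libraries, 5 of them in 72 h B, fgf9.S had 6 counts in 3 libraries, 4 of them in 6 h D, and fgf5.S had 3 counts in 2 libraries. In refractory tails fgf1.L had 3 counts in 2 libraries. The pair fgfr1op2, which is not a receptor pair, was tested and not called. The copy fgfr1op2.S averaged 19.3 CPM and took 79.6% to 87.9% of the pair's reads in the 8 groups.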
